A study of Mus musculus with 6 samples.

Results

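The genes described here encode the machinery of DNA replication and of entry into S phase. They were chosen by name, with earlier results of these data known, so shares over all genes given beside them are descriptions. They are 44 genes of the 37008 names on the array, and each of the 44 had at least 1 probe. The tissue was common bile duct epithelium of C57BL/6 mice named iFGF10, which bear a construct that induces Fgf10. There were 3 DOX+ samples, from mice given doxycycline at 0.02% in the drinking water for 5 days, and 3 DOX- samples, from mice given plain water over the same 5 days. FGF10 is a secreted growth factor of the fibroblast growth factor family, and the series title places its signal in papillary neoplasia of the biliary tree. The comparison therefore asks how far the replication genes differed in duct epithelium after induction. The labels name no promoter or driver line for the construct and no age or sex of the mice. The DOX- samples are called untreated iFGF10 in 1 field, while their descriptions carry WT with a pair of numbers, so their genotype, and whether 1 sample is 1 mouse, cannot be settled from the labels, although the design text counts 3 mice a group. Mice without the construct on doxycycline were not analysed here, so the antibiotic and the induced gene cannot be told apart. The 3 probes for Fgf10 were above background on 0 of 6 arrays, so the induced gene could not be used to check the labels, and whether those probes match the construct is not known.

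A cell commits to dividing when cyclin E and its kinase, together with E2F transcription factors, switch on the genes of S phase. Before that, the origin recognition complex (ORC), Cdc6 and Cdt1 load rings of MCM proteins onto DNA, which is called licensing. At the onset of S phase Cdc45 and the GINS complex join the MCM ring to form the active helicase, polymerases and a sliding clamp copy the strands, and enzymes of nucleotide synthesis supply the building blocks. Most of these genes are E2F targets whose transcripts peak around the G1/S boundary, so that in a tissue they track the share of cells in cycle. Adult bile duct epithelium is known to divide slowly.

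Since E2F sites are the textbook link between these genes, RefSeq promoters (GRCm38.p6, 250 bases before to 50 after a start) were searched on both strands for TTTCCCGC, TTTCGCGC, TTTGCCGC and TTTGGCGC. Of the 37 members with a promoter in that table, 15 held at least 1 such match (40.54%), against 2.6% of 27025 genes in the table and 4.21% of the 12372 genes that were also tested on the arrays. The letters CCAAT were present for 23 of the 37 members (62.16%) against 41.06% of the genes in the table, and TTTGAA for 6 (16.22%) against 20.23%. A match is a description of these windows and not a proven site. The promoters of Mcm5, Mcm6, Mcm7 and Pola1 are shown as examples from the helicase and the primase complex, that of Uhrf1 as the member with the largest measured difference, and that of Gins3 as a member with a match whose level hardly differed. Mcm6 and Pola1 were taken by rank of p, and the other 4 were chosen after their values were seen. Each run covers 200 bases before to 30 bases after the start, 5′ to 3′ on the gene's strand, with E2F matches on either strand in capitals. They lie at chr8:75109309-75109538 (+ strand), chr1:128359676-128359905 (- strand), chr5:138171854-138172083 (- strand), chrX:93632126-93632355 (- strand), chr17:56304113-56304342 (+ strand) and chr8:95633359-95633588 (+ strand).
Mcm5: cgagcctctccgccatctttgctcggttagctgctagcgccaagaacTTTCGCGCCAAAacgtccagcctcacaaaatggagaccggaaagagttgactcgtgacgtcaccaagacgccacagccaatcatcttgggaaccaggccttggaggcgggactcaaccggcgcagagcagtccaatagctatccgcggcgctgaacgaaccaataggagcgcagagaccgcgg
Mcm6: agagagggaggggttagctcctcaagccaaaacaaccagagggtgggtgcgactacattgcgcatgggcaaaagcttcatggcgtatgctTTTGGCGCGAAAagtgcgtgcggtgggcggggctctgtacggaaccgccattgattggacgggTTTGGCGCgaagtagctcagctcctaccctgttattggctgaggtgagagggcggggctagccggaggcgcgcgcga
Mcm7: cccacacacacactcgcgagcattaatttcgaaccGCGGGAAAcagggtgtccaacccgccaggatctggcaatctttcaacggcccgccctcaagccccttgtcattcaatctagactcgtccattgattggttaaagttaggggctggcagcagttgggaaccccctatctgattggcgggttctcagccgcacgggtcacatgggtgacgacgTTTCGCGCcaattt
Pola1: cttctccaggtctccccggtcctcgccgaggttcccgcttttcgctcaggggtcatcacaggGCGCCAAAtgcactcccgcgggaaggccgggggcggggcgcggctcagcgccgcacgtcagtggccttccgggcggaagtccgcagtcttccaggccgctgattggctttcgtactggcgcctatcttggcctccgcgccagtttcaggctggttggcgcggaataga
Uhrf1: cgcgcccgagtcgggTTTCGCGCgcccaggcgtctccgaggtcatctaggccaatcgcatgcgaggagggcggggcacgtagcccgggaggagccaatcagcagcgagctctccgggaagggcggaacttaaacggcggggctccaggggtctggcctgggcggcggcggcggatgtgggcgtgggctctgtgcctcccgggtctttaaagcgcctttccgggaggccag
Gins3: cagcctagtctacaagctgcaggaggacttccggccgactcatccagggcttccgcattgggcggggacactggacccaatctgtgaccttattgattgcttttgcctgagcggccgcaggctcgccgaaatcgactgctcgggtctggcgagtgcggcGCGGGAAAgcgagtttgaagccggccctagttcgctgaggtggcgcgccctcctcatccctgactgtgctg
In Mcm5 and Mcm6 a pair of matches on opposite strands overlap and read as 1 run of capitals. E2f2, Cdt1 and Pold1 held their match beyond base 30 after the start.

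The arrays are Agilent 1-colour arrays of 60-base probes. Levels are given as log2 of the processed intensity over the array's own 75th percentile, so that 0 is that percentile, and levels of different probes are not set against each other. Of the 59305 non-control spots, 59.9% to 61.9% were well above background on the DOX+ arrays and 55.9% to 60.6% on the DOX- arrays. DOX- replicate 3 had the lowest share and the lowest 75th percentile (666.2 against 712.2 to 910.1 on the other 5 arrays). All 6 arrays were on 1 slide. The DOX+ arrays and DOX- replicate 1 occupied its first row, and DOX- replicates 2 and 3 its second row. Cholangiocyte markers were well above background on all 6 arrays for 12 of 12 genes, with a summed level of 510.4 to 557.1 (in multiples of the 75th percentile) in DOX+ and 565.5 to 757.3 in DOX-. Markers of fibroblasts (7 of 7), smooth muscle (6 of 6), endothelium (8 of 8) and macrophages (8 of 8) were also above background on all 6 arrays, so the samples held other cells as well. With whole-tissue RNA of this kind, fewer cycling cells and less of a transcript per cell cannot be told apart.

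Of the 44 members, 43 were tested. Ccne2, the second cyclin E gene, has 1 probe, which was above background on 0 of 6 arrays. The mean was lower in DOX+ than in DOX- for 41 of the 43, where 51.8% of all 20736 genes tested were lower, and the median log2 difference was -0.50, against -0.01 over all genes. With limma (lmFit and eBayes, Benjamini-Hochberg adjustment over all genes), 0 of the 43 members passed at an adjusted p of 0.05, where 8 genes in all passed (0.0386%), 4 of them lower (0.0193%). The smallest adjusted p of a member was 0.22, for E2f2. At an unadjusted p under 0.05, 14 of the 43 were lower, against 6.32% of all genes, and 0 higher, against 7.02%. The DOX+ arrays lay wholly below the DOX- arrays for 11 of the 43, against 10.9% of all genes, and wholly above them for 1, against 10.1%. A total of 39 members were well above background on all 6 arrays, and each of these 39 had a lower mean in DOX+ (53.6% of the 19145 genes measured as well), with a median of -0.50, against -0.02. Of these 39, 0 passed at an adjusted p of 0.05 (0.0261% of such genes did), 13 were lower at an unadjusted p under 0.05 (6.17%), and 10 lay wholly lower (11.2%). The other 4 tested members passed the filter through 1 group alone and are described on their own: Cdc45 and E2f8 through DOX-, Orc1 and E2f7 through DOX+. For these 4, a higher value in that group was favoured by the selection.

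The count at an unadjusted p under 0.05 rests on few arrays. In either direction it was 14 of the 43 tested members, against 2766 of all 20736 genes. Without DOX+ replicate 2 it was 3 (1846 of 20884 genes), and without DOX+ replicate 3 it was 4 (2760 of 21111). Without DOX- replicate 2 it was 4 (1554 of 20791 genes), and without DOX- replicate 3 it was 3 (2666 of 21177). Where the count was 3 or 4, the members' share was near or below that of all genes. It was 22 without DOX+ replicate 1 (2500 of 21164 genes) and 21 without DOX- replicate 1 (3319 of 20859). With the slide row as a block only DOX- replicate 1 bears on the difference, and the median over the 43 was -0.22 with 35 of 43 lower.

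**Figure D1:**
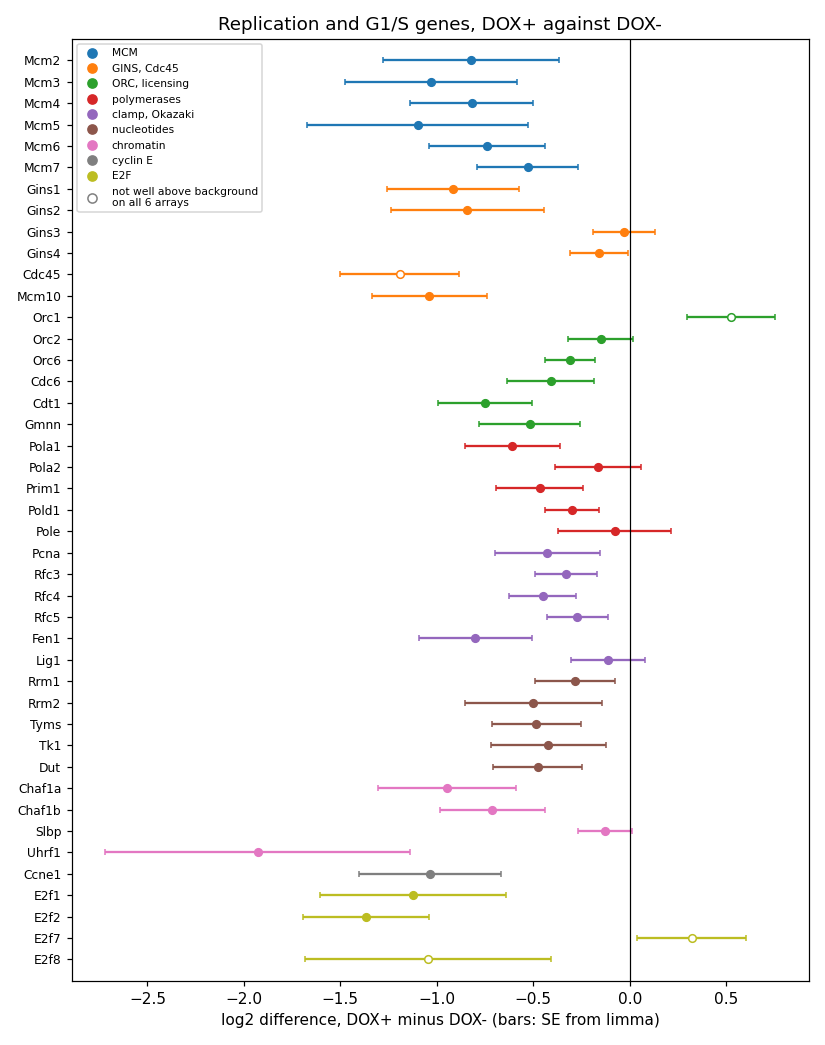
Log2 difference of each tested gene, DOX+ minus DOX- (x axis; bars are the SE from limma, 3 arrays a group), by role. Only Orc1 and E2f7 lie to the right of 0, and both, like Cdc45 and E2f8, are open symbols, for probes not well above background on all 6 arrays.

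Regulators of S phase entry showed some of the largest differences. E2f2, an activating E2F factor, had levels of -2.01, -2.25 and -1.34 in DOX+, against -0.29, -0.16 and -1.05 in DOX- (replicates 1 to 3). The groups did not overlap, and DOX- replicate 3 was the lowest of its group, unlike for most other members. Its log2 difference was -1.37 ± 0.33 (SE; limma adjusted p = 0.22, unadjusted p = 0.00547), and a second probe gave -1.20. E2f1, the founding activator of the family, had -1.80, -3.64 and -2.80 in DOX+, against -2.05, -1.62 and -1.20 in DOX-. DOX+ replicate 1 was above DOX- replicate 1, so the groups overlapped, and the difference of -1.12 ± 0.48 (SE; limma adjusted p = 0.387) was -0.68 without DOX+ replicate 2. Cyclin E1 (Ccne1), the regulatory subunit that turns on Cdk2 at the end of G1, had -2.43, -3.47 and -3.26 in DOX+, against -2.63, -1.71 and -1.71 in DOX-. Here too DOX+ replicate 1 lay above DOX- replicate 1, and the difference was -1.04 ± 0.37 (SE; limma adjusted p = 0.331).

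The atypical repressors E2f7 and E2f8, which switch S phase genes off again, were near background. E2f8 was detected above background on 2 DOX+ arrays and 3 DOX- arrays, with -2.81, -5.46 and -4.15 in DOX+, against -3.40, -3.07 and -2.81 in DOX- (difference -1.05 ± 0.64, SE; limma adjusted p = 0.515). DOX+ replicate 1 was as high as the highest DOX- array, and the difference ran from -1.71 without DOX+ replicate 1 to -0.39 without DOX+ replicate 2. For E2f7 a pair of probes disagreed in sign. The brighter one, at chromosome 10, 110219255 to 110219314 (mm9), gave 0.32 and was above background on 3 DOX+ arrays and 1 DOX- array. The other, at 110224331 to 110224390, gave -1.05 and was above background on 1 DOX+ array and 3 DOX- arrays. No direction is given for E2f7.

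The 6 MCM genes, which encode the ring of the replicative helicase, had differences between -1.10 for Mcm5 and -0.53 for Mcm7, with a median of -0.82. Mcm4 had 1.58, 0.93 and 0.82 in DOX+, against 1.41, 1.95 and 2.42 in DOX- (difference -0.82 ± 0.32, SE; limma adjusted p = 0.36). Mcm6 had 3.20, 2.76 and 2.33 in DOX+, against 3.11, 3.45 and 3.95 in DOX- (difference -0.74 ± 0.30, SE; limma adjusted p = 0.372), but a second probe of Mcm6, above background throughout, gave -0.24. In both genes the groups overlapped, because DOX+ replicate 1 was above DOX- replicate 1. That was so for each of the 6 MCM genes, and DOX- replicate 3 was the highest array for each. Mcm5 ran from -1.34 to 0.50 in DOX+ and from -0.24 to 1.08 in DOX-. Mcm3 ran from 0.16 to 1.30 in DOX+ and from 0.89 to 2.22 in DOX-, and its 4 probes gave differences between -1.03 and -0.86. Mcm2 had a difference of -0.82 ± 0.46 (SE), and a second probe of Mcm7 gave -0.25. Blocking on slide row, the median of the 6 was -0.33, with 6 of 6 lower.

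Partners that turn the MCM ring into a working helicase included Mcm10, Cdc45 and the GINS subunits. Mcm10, which helps to start unwinding, had -2.06, -2.96 and -1.83 in DOX+, against -1.35, -1.16 and -1.22 in DOX-. The groups did not overlap, and the 3 DOX- values lay within 0.20 of each other. The difference was -1.04 ± 0.30 (SE; limma adjusted p = 0.266), and a second probe gave -1.06. Cdc45, the helicase subunit that binds MCM and GINS, was well above background on 0 DOX+ arrays and 3 DOX- arrays, with -5.19, -6.30 and -5.60 in DOX+, against -4.81, -4.34 and -4.37 in DOX-. On these arrays this probe was at least 1.51-fold lower in DOX+, but it did not pass the threshold (limma adjusted p = 0.236). The bound takes each DOX+ array at its lowest detected signal or at the probe's own, whichever was higher. Because the probe passed the filter through DOX- alone, a lower value in DOX+ was favoured by its selection. A second Cdc45 probe, above background on 1 array of each group, gave a smaller difference of -0.42.

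The 4 GINS subunits form 1 complex, and differences between them were not tested. Gins1 had -1.50, -2.34 and -2.49 in DOX+, against -1.63, -1.23 and -0.71 in DOX- (difference -0.92 ± 0.34, SE; limma adjusted p = 0.346), and Gins2 a difference of -0.84 ± 0.40 (SE). Second probes gave -0.59 for Gins1 and -0.66 for Gins2. Gins3 had 3.34, 3.60 and 3.24 in DOX+, against 3.23, 3.43 and 3.60 in DOX-, a difference of -0.03 ± 0.16 (SE) whose sign depends on the scaling (0.08 with quantile normalisation). Gins4 had a difference of -0.16 ± 0.15 (SE). The range over the 6 arrays was 1.78 for Gins1 and 1.87 for Gins2, but 0.37 for Gins3 and 0.40 for Gins4.

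Among licensing factors, Cdt1, which brings MCM rings to ORC, had 1.67, 1.18 and 1.12 in DOX+, against 1.78, 1.96 and 2.48 in DOX-. The groups did not overlap (difference -0.75 ± 0.24, SE; limma adjusted p = 0.303). Geminin (Gmnn), the inhibitor of Cdt1, had a difference of -0.52 ± 0.26 and Cdc6, the ATPase that works with ORC, of -0.41 ± 0.23 (SE). Orc6, of the ORC itself, had 0.89, 0.86 and 0.72 in DOX+, against 0.99, 1.17 and 1.25 in DOX-, again without overlap (difference -0.31 ± 0.13, SE; limma adjusted p = 0.377), and Orc2 a difference of -0.15 ± 0.17 (SE).

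Orc1, the ORC subunit whose level varies through the cycle, was read differently by its 3 probes. The brightest, at chromosome 4, 108278369 to 108278428 (mm9), gave 0.53 ± 0.23 (SE; limma adjusted p = 0.389), with the DOX+ arrays above the DOX- arrays. The probe at 108287350 to 108287409 gave -1.93, and was above background on DOX+ replicate 1 and on DOX- replicates 2 and 3 only. The third, at 108284772 to 108285679, was not above background on any array. Pola2, the accessory subunit of polymerase alpha, likewise had 2 probes with differences of 0.28 and 0.29 and 2 adjacent ones with -0.17 and -0.13. Of the 22 members with several probes past the filter, 20 had 1 sign throughout, with Pola2 and E2f7 as the exceptions. When the probes of a gene were averaged, the median over the 43 was -0.44.

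**Figure D2:**
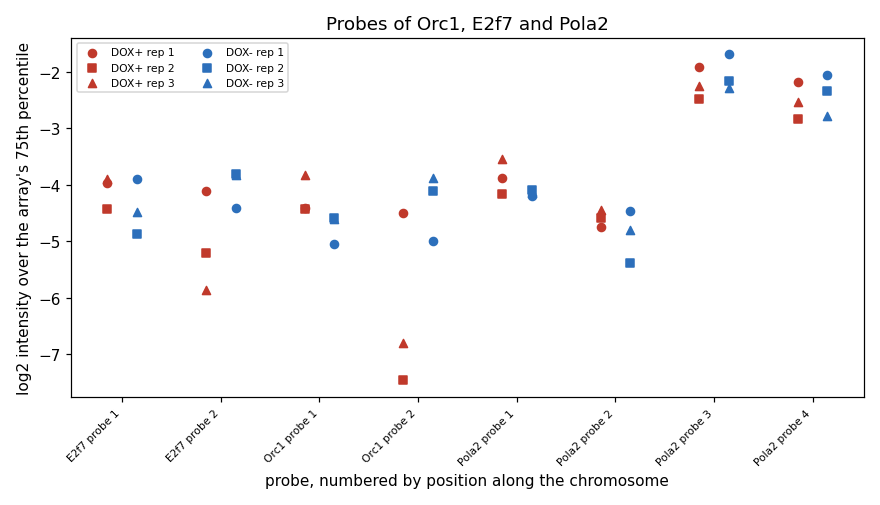
Level of each probe of E2f7, Orc1 and Pola2 that was well above background on at least 1 array (y axis: log2 intensity over the array's 75th percentile; red, DOX+; blue, DOX-; 1 symbol an array). Probes of the same gene differ in which group is higher.

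Polymerases and primase had smaller differences, with a median of -0.30 over 5 genes. Pola1, the catalytic subunit of polymerase alpha, had -1.85, -1.96 and -2.54 in DOX+, against -1.84, -1.41 and -1.28 in DOX- (difference -0.61 ± 0.24, SE; limma adjusted p = 0.366). The highest DOX+ value was only just under the lowest DOX- value, and a second probe, above background throughout, gave -0.12. Pold1, the catalytic subunit of the lagging-strand polymerase delta, had 0.96, 0.63 and 0.92 in DOX+, against 1.05, 1.22 and 1.14 in DOX- (difference -0.30 ± 0.14, SE; limma adjusted p = 0.415), without overlap. Prim1, the primase that lays RNA primers, had a difference of -0.47 ± 0.23 and Pole, the leading-strand polymerase epsilon, of -0.08 ± 0.29 (SE). Pole was highest on DOX+ replicate 3 (2.95), the array on which 21 of the 39 had their lowest value.

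Pcna, the sliding clamp and a common marker of proliferating cells, had 2.95, 2.59 and 2.90 in DOX+, against 2.71, 3.31 and 3.70 in DOX-. DOX- replicate 1 lay below a pair of DOX+ arrays, and the difference of -0.43 ± 0.27 (SE; limma adjusted p = 0.528) was 0.10 with the slide row as a block. Fen1, the nuclease that trims Okazaki fragments, had 0.95, 0.44 and 0.14 in DOX+, against 0.97, 1.18 and 1.79 in DOX- (difference -0.80 ± 0.29, SE; limma adjusted p = 0.338). Rfc4, of the clamp loader, had 0.44, 0.15 and 0.11 in DOX+, against 0.46, 0.69 and 0.91 in DOX- (difference -0.45 ± 0.17, SE; limma adjusted p = 0.351), and its other probes gave -0.32 and -0.35. In both, and in the clamp loader subunits Rfc3 (-0.33 ± 0.16) and Rfc5 (-0.27 ± 0.16, SE), the groups did not overlap, although for Fen1 and Rfc4 DOX+ replicate 1 and DOX- replicate 1 were nearly equal. Lig1, the ligase that joins the fragments, had a difference of -0.11 ± 0.19 (SE).

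The 5 genes of nucleotide supply had close differences, from -0.50 for Rrm2 to -0.28 for Rrm1, the 2 subunits of ribonucleotide reductase. Tyms, thymidylate synthase, had 1.00, 0.95 and 0.72 in DOX+, against 0.99, 1.31 and 1.82 in DOX- (difference -0.48 ± 0.23, SE; limma adjusted p = 0.427). Dut, which keeps uracil out of DNA, had -0.71, -0.996 and -1.29 in DOX+, against -0.86, -0.50 and -0.20 in DOX- (difference -0.48 ± 0.23, SE; limma adjusted p = 0.428). Other probes gave -0.37 and -0.24 for Tyms and -0.19 for Dut. Tk1, the salvage thymidine kinase, had a difference of -0.42 ± 0.30 (SE). The groups overlapped for each of the 5. Blocking on slide row, their median was -0.04 and 3 of 5 were lower. Set against DOX- replicates 2 and 3 alone, the DOX+ mean gave a median of -0.65.

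The genes that rebuild chromatin behind the fork included the widest spread. Uhrf1, which recruits the maintenance DNA methyltransferase to newly copied DNA, had 0.11, -3.01 and -2.01 in DOX+, against -0.24, 0.26 and 0.86 in DOX-. DOX+ replicate 1 lay among the DOX- arrays, so that the difference of -1.93 came with a SE of 0.79 (limma adjusted p = 0.373) and ran from -2.80 without DOX+ replicate 1 to -1.24 without DOX+ replicate 2. Chaf1a, a subunit of chromatin assembly factor 1, had -2.05, -2.94 and -2.94 in DOX+, against -2.23, -1.67 and -1.18 in DOX- (difference -0.95 ± 0.36, SE; limma adjusted p = 0.348). Its partner Chaf1b had 2.28, 1.86 and 1.45 in DOX+, against 2.24, 2.56 and 2.93 in DOX- (difference -0.71 ± 0.27, SE; limma adjusted p = 0.351). Slbp, which binds histone mRNA and is regulated mostly after transcription, had a difference of -0.13 ± 0.14 (SE).

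**Figure D3:**
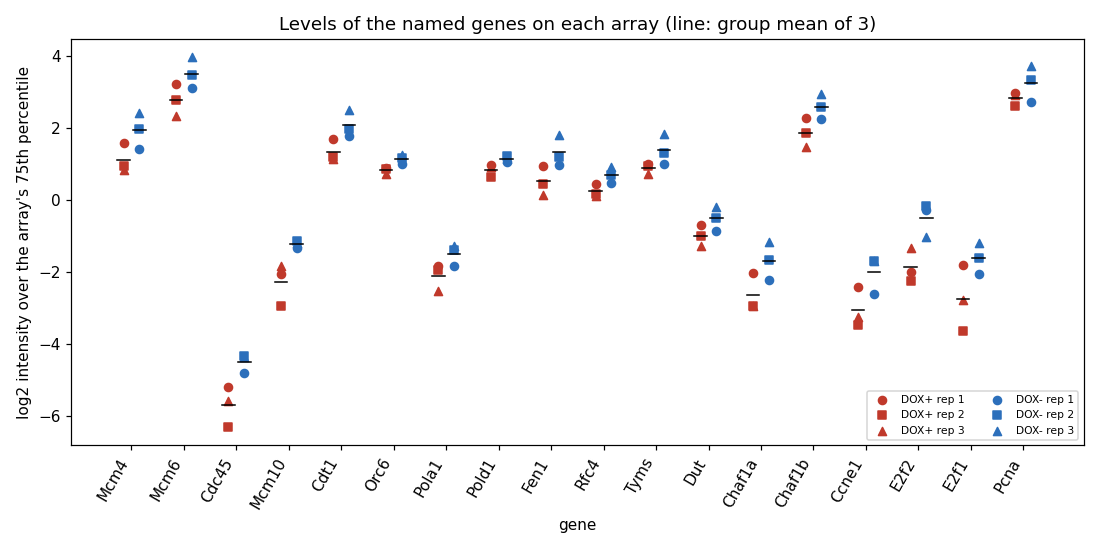
Levels on each array of the genes named by rank of p within their role, and of Pcna (y axis: log2 intensity over the array's 75th percentile; red, DOX+; blue, DOX-; line, mean of 3). E2f2, Mcm10 and Cdt1 show no overlap between the groups, and Cdc45 was above background in DOX- alone, while for Mcm4 and Chaf1a DOX+ replicate 1 lies above DOX- replicate 1.

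The members kept a common order over the arrays, and that order did not follow the groups alone. Of the 39 well above background throughout, 33 were highest on DOX- replicate 3 (84.62%, against 34.72% of the 19145 genes), 21 were lowest on DOX+ replicate 3 (53.85% against 21.43%) and 16 on DOX+ replicate 2 (41.03% against 17.15%). Within DOX+, replicate 1 was the highest for 31 of 39 (79.49% against 36.47%). Within DOX-, replicate 1 was the lowest for 35 of 39 (89.74% against 48.22%). DOX+ replicate 1 was above DOX- replicate 1 for 24 of 39 members, against 54.23% of all genes, with a median difference between those arrays of 0.09, against 0.03. By contrast DOX+ replicate 2 was below DOX- replicate 3 for 39 of 39, against 58.22% of all genes. The median difference between those arrays was -1.08, against -0.10 over all genes. Averaged over the 39 genes after centring each on its mean, the arrays stood at 0.06, -0.53 and -0.44 in DOX+, against 0.00, 0.31 and 0.61 in DOX-, and the groups overlapped. By role, the groups did not overlap for GINS with Mcm10, ORC and licensing, polymerases and primase, or the E2F factors (2 genes). Except for the E2F factors, the highest DOX+ array and the lowest DOX- array were close. They stood at -0.01 and 0.05 for GINS with Mcm10, -0.11 and -0.06 for ORC, and 0.02 and 0.07 for polymerases. In the GINS list DOX+ replicate 1 was above DOX- replicate 1 for 3 of 5 genes, while Mcm10 had -2.06 and -1.35 there. The ORC list leaves out Orc1, whose brightest probe was higher in DOX+. Pola2 had -1.91 and -1.69 on the replicate 1 arrays, but another probe above background throughout had -3.89 and -4.20.

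**Figure D4:**
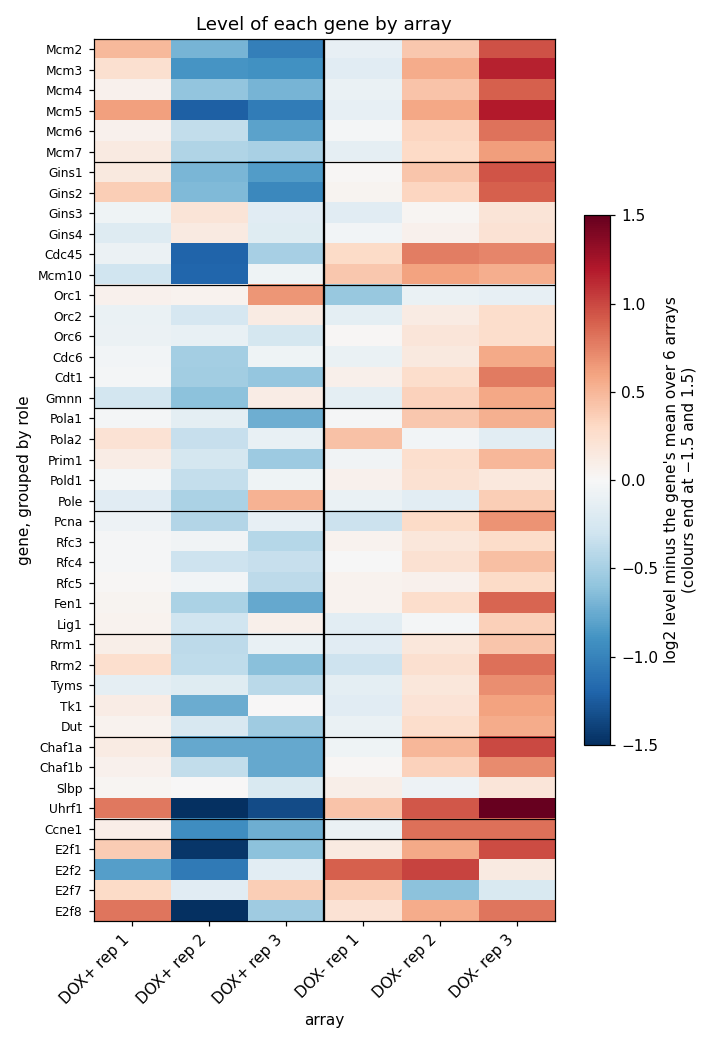
Level of each tested gene on each array as a difference from its own mean over the 6 arrays (colour, log2; rows by role, DOX+ left of the line, DOX- right). Most rows are lowest on DOX+ replicates 2 and 3 and highest on DOX- replicate 3, with replicate 1 of each group between them.

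The correlation over the 6 arrays shows how closely members moved together, as a description of these arrays, which share group, slide row and signal strength. The median Pearson correlation over the 741 pairs of the 39 members was 0.78, against 0.02 over all pairs of the 19145 genes, and it was 0.68 after removal of the group means. Other lists had such values too: 0.95 over 21 genes of mitosis and G2/M and 0.97 over 6 smooth muscle markers. Over 54 further replication genes the median was 0.24. Within the MCM ring the 15 pairs lay between 0.92 and 1.00 (median 0.97). The nucleotide supply genes had a median of 0.86 over 10 pairs and the clamp and Okazaki fragment genes 0.86 over 15 pairs. GINS with Mcm10 had a median of 0.43 over 10 pairs and the polymerases 0.26 over 10 pairs. Against the mean of the other 38 members, Chaf1a (1.00), Rfc4 (0.99) and Mcm3 (0.99) were closest. Those that followed it least were Pola2 (0.21), Pole (0.21), Gins3 (0.26), Gins4 (0.40) and E2f2 (0.48). E2f2 was the member with the smallest p and among those that shared least with the rest, being high on DOX- replicate 1 and low on DOX- replicate 3.

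Other replication and cell cycle genes were taken from separate lists. Of 57 further replication genes 54 were tested, 40 lower and 14 higher in DOX+ (51.8% of all genes tested were lower), with a median of -0.17. None passed the limma test (smallest adjusted p 0.239), and at an unadjusted p under 0.05 there were 6 lower (the share over all genes tested was 6.32%) and 1 higher (7.02%). Dck, the salvage kinase for deoxycytidine, had a difference of -0.97 ± 0.25, cyclin A2 (Ccna2) of -1.64 ± 0.60 and the histone chaperone Asf1b of -1.18 ± 0.45 (SE). Rbl2, a retinoblastoma family protein that represses E2F targets in resting cells, had -1.14, -0.999 and -0.872 in DOX+, against -1.46, -1.56 and -1.995 in DOX-. It was the 1 higher gene (0.67 ± 0.18, SE; limma adjusted p = 0.246), and its groups did not overlap. Of 33 genes of mitosis and G2/M 28 were tested, and 7 of these passed the filter through DOX- alone, so that a lower value in DOX+ was built into their selection. Of the other 21, above background on all 6 arrays, 20 were lower (53.6% of the genes measured as well), with a median of -1.14. At an unadjusted p under 0.05, 9 of these 21 were lower (6.17% of such genes). None of the 28 passed the adjusted limma test (0.0386% of all genes did). Mki67, the antigen of cycling cells, had 0.24, -1.58 and -0.56 in DOX+, against -0.09, 0.90 and 1.04 in DOX- (difference -1.25 ± 0.52, SE; limma adjusted p = 0.378). Among those with the smallest p, Incenp, of the chromosomal passenger complex, had a difference of -0.67 ± 0.19 and Ect2, which acts in cytokinesis, of -1.41 ± 0.46 (SE). Bub1b, of the spindle checkpoint (-1.26 ± 0.29), and Tpx2, of the spindle (-1.55 ± 0.50, SE), were above background on 2 DOX+ arrays and 3 DOX- arrays, and so belong to the 7 that passed through DOX-. The 21 mitosis genes had their lowest mean on DOX+ replicate 2 (-1.29, against -0.55 on DOX+ replicate 3), as did the 39 members, whereas the MCM genes had -0.70 and -0.83 on those arrays.

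Markers of other cells also differed between the arrays, and their part in the replication genes was not tested. The cholangiocyte list averaged -0.26, -0.15 and -0.28 in DOX+, against 0.13, 0.24 and 0.33 in DOX- after the same centring, without overlap. The mean difference of that list rests largely on Cdh1 (-2.01), Slc10a2 (-1.75) and Krt7 (-1.02), since the median of the 12 was -0.22 and Sox9 (0.14) and Slc4a2 (0.46) had higher means in DOX+. Mast cell and eosinophil markers (8 of 12 above background throughout, Epx on no array) averaged -0.27, 0.67 and 2.59 in DOX+, against -0.54, -0.99 and -1.47 in DOX-, with a summed level of 9.95 to 109.4 in DOX+ and 4.74 to 7.98 in DOX-. The mast cell proteases carried this average, such as Mcpt1 (difference 5.57) and Mcpt4 (3.31), while Siglecf, of eosinophils, had -1.20 and Kit 0.09. Endothelial markers averaged 0.43, 0.47 and 0.07 in DOX+, against -0.11, -0.44 and -0.43 in DOX- (summed level 14.5 to 18.8 in DOX+ and 8.47 to 11.99 in DOX-). T and NK cell markers (7 of 10 above background throughout, Cd8a on no array) had a summed level of 6.11 to 6.76 in DOX+ and 5.48 to 6.54 in DOX-. Macrophage markers had 25.2 to 34.4 in DOX+ and 21.0 to 41.7 in DOX-, with their lowest value on DOX- replicate 3, the array on which the replication genes were highest. The share of spots above background was lowest on that same array. Smooth muscle markers had a summed level of 173.8, 119.4 and 74.5 in DOX+, against 301.1, 57.0 and 62.9 in DOX-, so they were highest on replicate 1 of each group. Pancreatic acinar markers had 155.6, 99.4 and 103.5 in DOX+, against 59.6, 93.7 and 241.9 in DOX-, and erythroid markers 42.6, 174.9 and 65.8 in DOX+, against 54.6, 37.9 and 282.5 in DOX-. Both lists were highest on DOX- replicate 3, and their groups overlapped. Summed levels also overlapped for hepatocyte (67.7 to 130.6 in DOX+, 59.8 to 141.4 in DOX-), neutrophil (96.6 to 114.6, 92.5 to 156.4) and B and plasma cell markers (72.3 to 81.1, 71.6 to 90.0). Of 5 neutrophil markers tested, S100a8 (-3.06) and S100a9 (-2.89) were lower and 3 higher. Of 7 B and plasma cell markers 5 were higher, among them Jchain (3.63) and Mzb1 (2.75), which passed the filter through DOX+ alone.

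**Figure D5:**
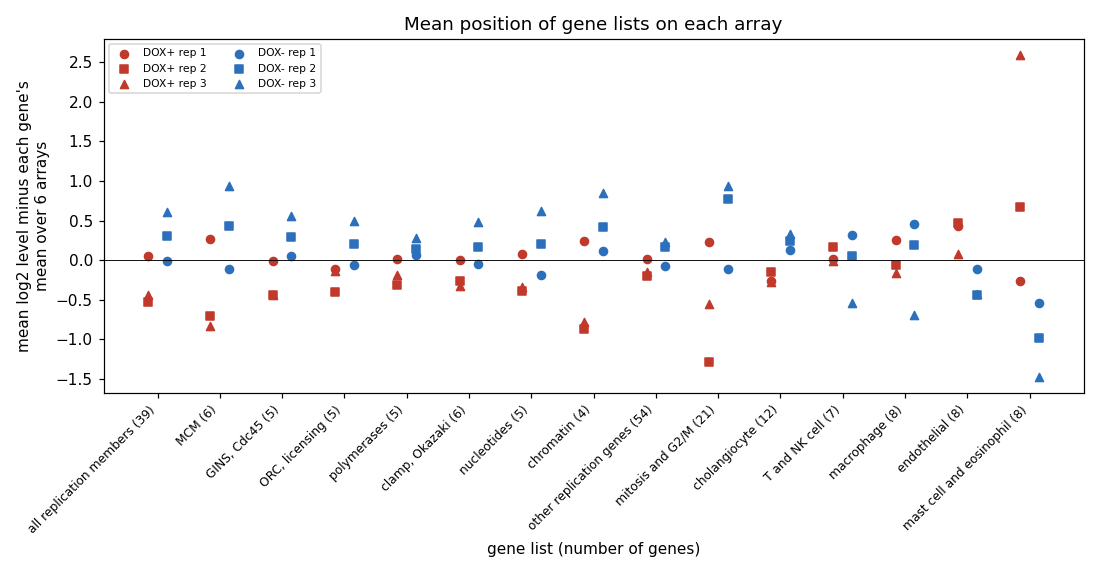
Mean position of each gene list on each array, after each gene was centred on its mean over 6 arrays (y axis, log2; red, DOX+; blue, DOX-; number of genes in brackets). The lists of all replication members, MCM and mitosis share an order of arrays in which replicate 1 of each group lies between the others, and their groups overlap. The list of GINS with Mcm10 separates the groups by a narrow margin, as do the ORC and polymerase lists. It is marked GINS, Cdc45, but Cdc45 is not in it. The cholangiocyte, endothelial and mast cell lists separate the groups as well.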

How the data were processed

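RNA of 6 samples was labelled with Cy3 and hybridised to 1-colour Agilent arrays, 1 array a sample. The deposited scanner files hold spot intensity from Agilent Feature Extraction. The version is 10.7.1.1 per the file headers but 9.5.1.1 in the submitters' processing notes. The deposited processed intensity has background subtraction and spatial detrending applied array by array, per the file headers, and flags of 0 or 1 mark spots above background. A deposited table of the authors' processed intensity, linear and quantile-like between arrays, was an alternative. Probe positions are on mm9, per the file headers.

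Spots flagged as outliers were left out (50 to 64 an array). From log2 intensity the array's 75th percentile was subtracted. A probe was kept if each array of 1 or both groups had it well above background (31719 of 56605), and the brightest probe stood for a gene, giving 20736 genes. DOX+ was compared with DOX- by limma 3.58.1 (R 4.3.3), two-sided, with Benjamini-Hochberg adjustment over all genes and a threshold of 0.05. The number of arrays, 3 a group, limits precision (median SE 0.185), and the p-values rest on spread among samples that need not be separate animals.

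Probes were named through RefSeq (GRCm38.p6) by accession (32994), symbol (10224) or older symbol (520), and 12867 kept the file's name. Members and lists were chosen with earlier results of these data known. Values on each array are given for the 2 members of smallest p in each of 9 roles, for members below background in 1 whole group and for Pcna and Mki67. From the other replication and mitosis lists the 4 genes of smallest p each are named. Other members with values on each array were chosen after those were seen. Alternatives covered scaling, background, filter, probe choice, weights, slide row, pairing and each array left out.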

Additional observations from a re-analysis of the deposited data

How the results depend on the processing

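With 8 genes past the threshold in the comparison as reported, the count was 2 with quantile normalisation and 5 with median centring. Median centring moved the median difference of all genes from -0.01 to -0.13. The count was 2 with the authors' processed values, 1 with no filter on dim probes, 5 with only probes above background on all 6 arrays, and 375 with array weights. It was 0 with slide row as a block (1409 genes at an unadjusted p under 0.05, limma) and 0 with the replicate number as a block (2257 genes). Leaving out 1 array gave 0 (without DOX- replicate 2) to 30 (without DOX+ replicate 1), with 18 and 21 without DOX+ replicates 2 and 3, 10 without DOX- replicate 1 and 19 without DOX- replicate 3. Members past it numbered 1 with array weights (E2f2, -1.74, limma adjusted p = 0.035; the weight of DOX- replicate 2 was 4.9) and 0 in the other alternatives run. The median of the members stayed negative in each alternative run, between -0.72 (without DOX- replicate 1) and -0.34 (without DOX- replicate 3) when 1 array was left out and -0.22 with slide row as a block. Same-numbered arrays deviated from their group means with correlations of -0.09, -0.13 and -0.02. Differently numbered arrays were not compared in this way, so whether same-numbered samples share more than a number was not tested. The replicate block left 4 of 43 members at an unadjusted p under 0.05 (limma), against 14 without it. That share was no higher than over all genes (2257 of 20736).

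The direction of 10 members depended on a setting, among them Rrm2 (-0.50 as reported), Pcna (-0.43), E2f7 (0.32) and Rrm1 (-0.28). Gins3 was 0.083 with quantile normalisation, 0.022 with the percentile over detected probes, 0.088 with normexp, 0.083 with the authors' values, 0.017 with array weights and 0.16 with the slide row. The slide row also gave 0.076 for Orc2, 0.058 for Pole, 0.10 for Pcna, 0.10 for Lig1, 0.028 for Rrm1, 0.063 for Rrm2 and -0.20 for E2f7. The mean over probes gave 0.070 for Pola2 and -0.37 for E2f7, and array weights 0.0015 for Slbp. With 1 array left out, Gins3 ran from -0.13 to 0.059 (positive without DOX+ or DOX- replicate 3), Pola2 from -0.31 to 0.014 (positive without DOX- replicate 1), Pole from -0.36 to 0.14 and Lig1 from -0.22 to 0.040 (both positive without DOX+ replicate 2 or DOX- replicate 3), and E2f7 from -0.65 (without DOX+ replicate 3) to 0.58. The cause was not tested. Low signal limits Cdc45, E2f7, E2f8, Orc1 and Ccne2.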
